A study of Homo sapiens with 12 samples.

Results

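The genes described here encode the constitutive subunits of the proteasome, 31 rows of a count table of 57353 rows, chosen by gene symbol. They comprised 14 genes of the 20S core particle (7 alpha and 7 beta subunits) and 17 genes of the 19S regulatory particle (6 ATPases and 3 non-ATPase subunits of the base, and 8 lid subunits). RNA was measured in HepG2, a human hepatocellular carcinoma cell line. Cultures received 10 µM sorafenib, a multikinase inhibitor, for 12 h, or its vehicle DMSO. All cultures were treated with 200 µg/ml cycloheximide, which holds ribosomes on mRNA, before lysates were separated on sucrose gradients. Each of the 6 cultures, 3 per treatment, gave a library from the pooled polysome fractions and one from a pooled light fraction that held low-molecular complexes, free ribosomal subunits and single ribosomes, so that the 12 libraries formed 4 groups of 3. The groups were sorafenib polysome, vehicle polysome, sorafenib light and vehicle light. The design text names the experiment RiboSeq and the protocol makes libraries from RNA of whole pools, so whether counts stem from ribosome footprints or from entire mRNAs is not settled by the labels. No library of unfractionated RNA was analysed here, and a single cell line limits the model.

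The proteasome degrades proteins that carry ubiquitin chains. In the 20S core, rings of alpha subunits gate access to rings of beta subunits, of which PSMB5, PSMB6 and PSMB7 carry the chymotrypsin-like, caspase-like and trypsin-like active sites. In the 19S particle, an ATPase ring and non-ATPase scaffold and receptor subunits form the base, which unfolds substrates, and the lid holds the deubiquitinase PSMD14. Core and regulatory particle assemble separately with the help of dedicated chaperones, and mammalian cells are known to raise the transcription of many subunit genes together through the factor NFE2L1.

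Total counts ranged from 511065 to 13336689 per library. Sorafenib light libraries 1 and 2 were shallow, with 2060384 and 511065 counts, and the replicates of that group were less alike (r of log2 CPM 0.80 to 0.93) than those of the other groups (0.95 to 0.99). Of the 31 genes, 24 had their lowest level among the 3 sorafenib light libraries in library 2, and the lowest count of any of the 31 genes in a library was 9. For the 31 genes, counts, medians and main genes of the light fraction are therefore also given without libraries 1 and 2 of that group. Genes of the other lists were not checked in this way. All 8 hepatocyte markers were present in every library, with at least 42 counts. Of 8 markers of leukocytes, endothelial cells and fibroblasts, 7 had at most 10 counts in any library, and CD68 had 16 to 406. Levels are TMM-scaled CPM, counts relative to the library total after TMM correction, so a difference is one relative to other genes and not in the amount of RNA. In these bulk libraries, fewer cells and less RNA per cell cannot be told apart. No level is compared between genes, since the counts are not per length.

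On polysomes, mRNAs of the 19S regulatory particle were higher after sorafenib, and mRNAs of the 20S core were not. Of the 17 19S genes, 11 rose and 1 fell, and 5 were not called. Of the 14 20S genes, 3 fell and none rose, and 11 were not called. All 31 genes passed the filter on low counts. The call was an adjusted p under 0.05 in edgeR's quasi-likelihood test over 14955 genes, of which 20.9% were higher and 28.8% lower in this comparison. The 3 20S genes that fell were thus no larger a share than that of all genes. The median log2 fold change was 0.75 for the 19S genes and -0.33 for the 20S genes, against -0.26 over all tested genes. Relative to that median of all genes, the 19S genes stood at 1.01 and the 20S genes at -0.07.

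The scaling moved the zero of this comparison. When TMM factors were computed within each fraction, the median over all genes became -0.03, and rises made up 55.5% of all calls, against 42.1% before. Under that scaling 1 20S gene rose and 1 fell, and no 19S gene fell. The 19S median stayed positive in all 24 settings (0.66 to 1.15), whereas the 20S median lay between -0.48 and 0.08. The difference of the medians, 19S minus 20S, was 1.07 and ranged from 0.91 to 1.34. A change of scaling shifts both medians nearly alike, so the scaling settings cannot test this difference, here or in the comparisons below.

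**Figure D1:**
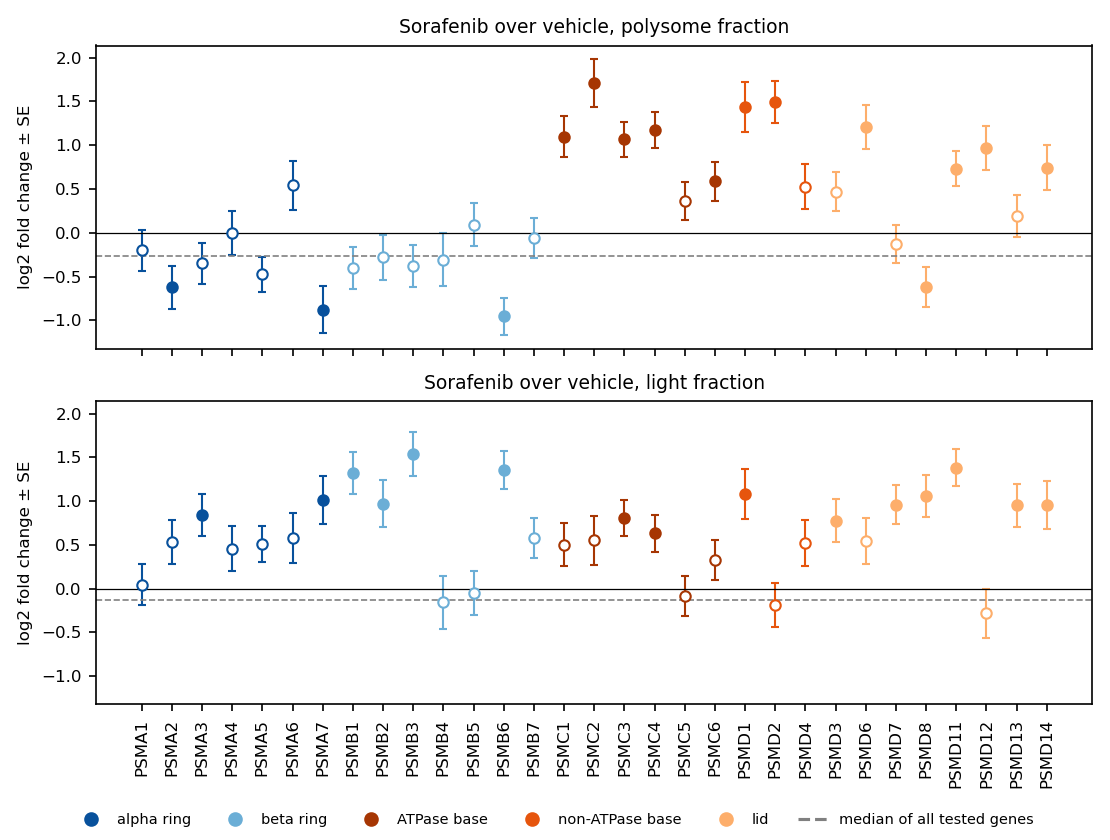
Log2 fold change of sorafenib over vehicle (vertical axis, point with SE) for each of the 31 genes (horizontal axis) on polysomes (upper panel) and in the light fraction (lower panel), coloured by subcomplex. Filled points passed an adjusted p under 0.05 and open points did not, and the dashed line is the median of all 14955 tested genes. On polysomes 11 of 17 19S genes are filled above 0 and none of the 14 20S genes is, whereas in the light fraction 6 20S and 9 19S genes are.

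Within the base, 5 of the 6 ATPase genes rose on polysomes, with a median log2 fold change of 1.08, and 2 of the 3 non-ATPase genes rose, with a median of 1.44. PSMC2, an ATPase of the ring that unfolds substrates, had 90.5, 70.7 and 96.8 CPM in the sorafenib polysome libraries, against 25.6, 20.6 and 32.5 CPM in the vehicle polysome libraries. Its lowest sorafenib library was above its highest vehicle library. The log2 fold change was 1.71 ± 0.27 (SE, n = 3 per group; edgeR adjusted p = 7.02e-05), the highest of the 31 genes. The ATPase genes PSMC4 (1.18 ± 0.21), PSMC1 (1.10 ± 0.23), PSMC3 (1.07 ± 0.20) and PSMC6 (0.59 ± 0.22) also rose, and the call of PSMC6 was lost without any 1 polysome library other than vehicle polysome 1 (adjusted p = 0.0504 to 0.137). PSMC1 has 13 pseudogene rows, which held up to 22.6% of the sum of gene and pseudogene counts in a library, and adding them did not end its call.

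The ATPase gene PSMC5 had 115, 143 and 123 CPM in the sorafenib polysome libraries, against 76.3, 99.1 and 121 CPM in the vehicle polysome libraries. The groups overlapped, and its log2 fold change of 0.36 ± 0.22 did not pass the test (edgeR adjusted p = 0.176). Without the 2 shallow light libraries, which enter this comparison through the scaling and the shared spread, it was 0.60. The median over all tested genes was then -0.02, against -0.26 with all libraries, so the zero of the comparison moved as well.

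PSMD2, a large scaffold subunit of the base that binds ubiquitin-like domains of shuttle proteins, had 193, 199.9 and 208 CPM in the sorafenib polysome libraries, against 65.0, 63.8 and 83.9 CPM in the vehicle polysome libraries. Its sorafenib values were close together and all far above the highest vehicle value. Its log2 fold change was 1.50 ± 0.24 (edgeR adjusted p = 6.68e-05). PSMD1, the other large scaffold of the base, rose by 1.44 ± 0.28. The ubiquitin receptor PSMD4 had 318, 258 and 268 CPM in the sorafenib polysome libraries, against 139, 205 and 242 CPM in the vehicle polysome libraries. All 3 sorafenib values lay above the vehicle values, yet the log2 fold change of 0.53 ± 0.26 did not pass the test (edgeR adjusted p = 0.0958). It was 0.77 without the 2 shallow light libraries, where the median over all tested genes was -0.02, against -0.26 with all libraries.

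The lid was less uniform: on polysomes 4 of its 8 genes rose and 1 fell, 3 were without a call, and the median was 0.60. PSMD6, a lid scaffold subunit, had 49.7, 60.3 and 56.3 CPM in the sorafenib polysome libraries, against 31.1, 16.5 and 23.7 CPM in the vehicle polysome libraries. The groups did not overlap, and the log2 fold change was 1.21 ± 0.25 (edgeR adjusted p = 0.000653). Rows of antisense genes at PSMD6 held up to 16.7% of its own count, and the sources do not state whether counting used strand. The scaffold gene PSMD11 (0.73 ± 0.20) rose as well. PSMD12, another lid scaffold gene, had 50.6, 39.9 and 61.3 CPM in the sorafenib polysome libraries, against 25.3, 18.4 and 33.3 CPM in the vehicle polysome libraries. The groups did not overlap, and it rose by 0.97 ± 0.26 (edgeR adjusted p = 0.00434).

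PSMD14, the lid deubiquitinase that removes ubiquitin chains from substrates as they enter, had 87.3, 88.3 and 96.9 CPM in the sorafenib polysome libraries. In the vehicle polysome libraries it had 52.5, 34.0 and 75.2 CPM. The vehicle libraries were spread widely below the sorafenib ones, and the log2 fold change was 0.75 ± 0.26 (edgeR adjusted p = 0.0219). Its call was lost without vehicle polysome library 2 (0.51, edgeR adjusted p = 0.119), without vehicle polysome library 1 (adjusted p = 0.053) and without sorafenib polysome library 3 (adjusted p = 0.071).

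PSMD8, a small lid subunit whose yeast counterpart joins late in lid assembly, went the other way. It had 52.7, 61.2 and 65.6 CPM in the sorafenib polysome libraries, against 85.9, 90.9 and 98.7 CPM in the vehicle polysome libraries. The groups did not overlap, and it fell by 0.62 ± 0.23 on the log2 scale (edgeR adjusted p = 0.031). That call depended on the scaling. Under TMM within each fraction, where no 19S gene was called lower, PSMD8 kept its sign without a call, and leaving out any 1 library other than vehicle polysome 1 also ended it.

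Among the 20S genes, the alpha subunit genes PSMA7 and PSMA2 and the beta subunit gene PSMB6 fell on polysomes. PSMB6, the caspase-like catalytic subunit, had 125, 157 and 163 CPM in the sorafenib polysome libraries, against 279, 308 and 274 CPM in the vehicle polysome libraries. Every sorafenib value lay well under every vehicle value. It fell by 0.95 ± 0.21 (edgeR adjusted p = 0.00122). PSMA7 had 483, 444 and 434 CPM in the sorafenib polysome libraries, against 718, 732 and 1052 CPM in the vehicle polysome libraries. The sorafenib libraries were close together and the vehicle libraries were all higher, with library 3 highest. Its fall was 0.88 ± 0.27 (edgeR adjusted p = 0.0116). Without vehicle polysome library 3 the log2 fold change was -0.68 (adjusted p = 0.0655), and without any 1 of 5 light libraries (all but sorafenib light 2) it was -0.64 with adjusted p of 0.0567 to 0.0853. PSMA2, at -0.62 ± 0.25, was near the threshold (edgeR adjusted p = 0.0429, and 0.0551 with the replicate number as a block), and was called in 1 of the 12 fits that left out a library, the one without vehicle polysome 1. Without the filter on low counts, none of these 3 genes was called.

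The other catalytic genes did not pass the test on polysomes. PSMB5, the chymotrypsin-like subunit and the target of proteasome inhibitors such as bortezomib, had 627, 624 and 568 CPM in the sorafenib polysome libraries, against 549, 654 and 501 CPM in the vehicle polysome libraries. These groups overlapped (0.09 ± 0.25, edgeR adjusted p = 0.769). PSMB7, the trypsin-like subunit, had 134, 171 and 158 CPM in the sorafenib polysome libraries, against 134, 198 and 152 CPM in the vehicle polysome libraries. These also overlapped (-0.06 ± 0.23, edgeR adjusted p = 0.831). PSMB3, a non-catalytic beta subunit, had 228, 249.975 and 273 CPM in the sorafenib polysome libraries, against 293, 396 and 289.9 CPM in the vehicle polysome libraries. Its sorafenib values all lay below the vehicle values without passing the test (-0.38 ± 0.24, edgeR adjusted p = 0.195). The alpha subunit gene PSMA6 had the highest log2 fold change of the 20S genes on polysomes, with 285, 345 and 308 CPM in the sorafenib polysome libraries, against 216, 164 and 264 CPM in the vehicle polysome libraries. All its sorafenib values lay above the vehicle values. Its log2 fold change of 0.54 ± 0.28 did not pass (edgeR adjusted p = 0.117), but it was the 20S gene that was called under other scalings. Without the shallow light libraries it was 0.78, where the median over all tested genes was -0.02, against -0.26 with all libraries. PSMA6 has 4 pseudogene rows, which held up to 5.50% of the summed counts.

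**Figure D2:**
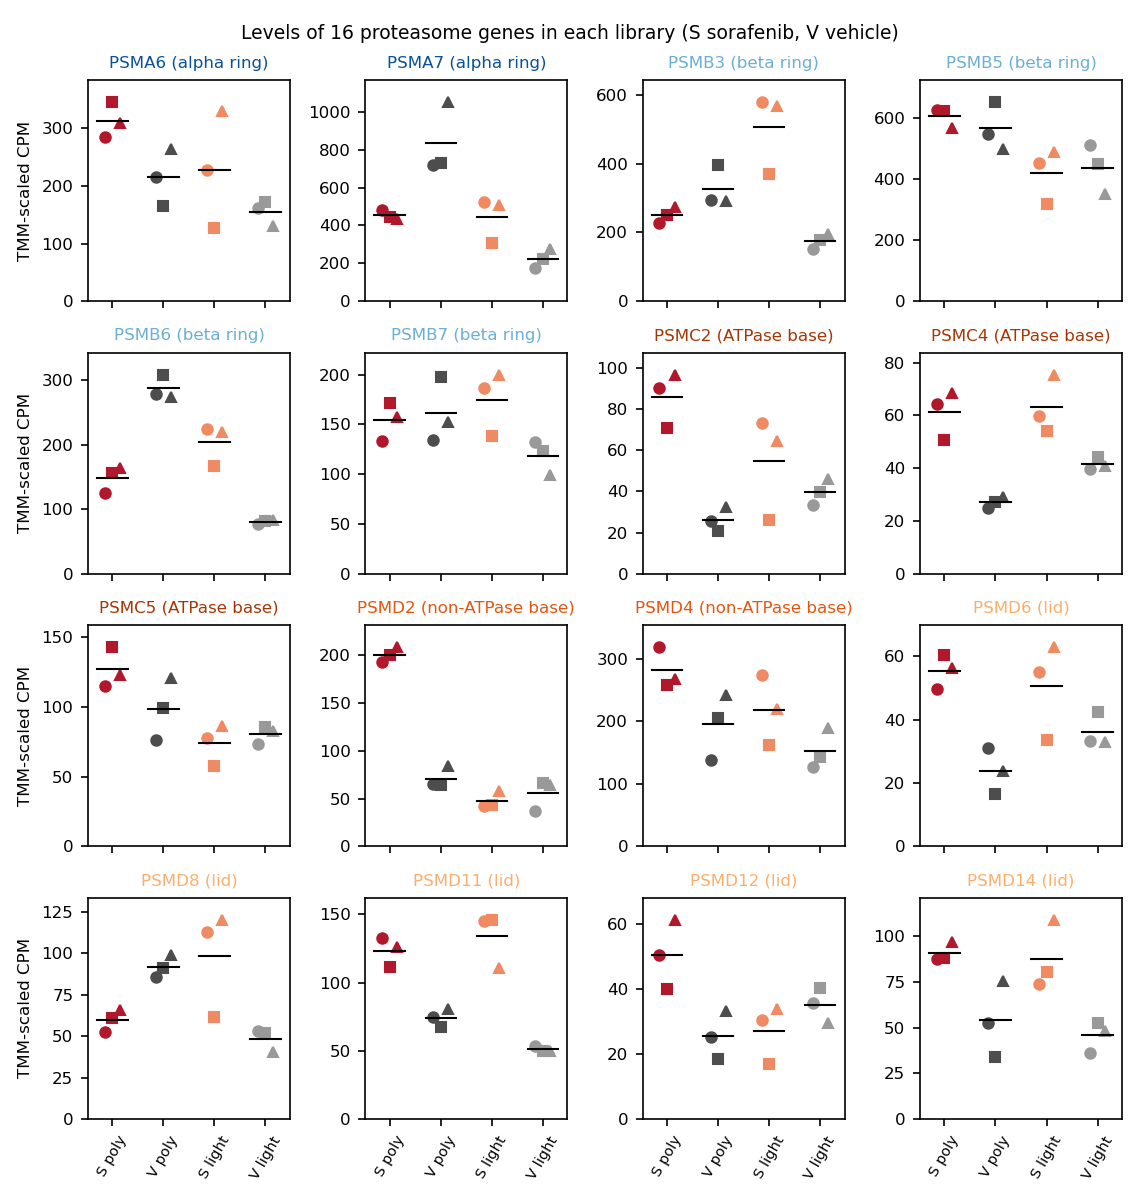
TMM-scaled CPM (vertical axis, linear from 0, a scale of its own in each panel) of 16 proteasome genes in the 12 libraries, with sorafenib polysome, vehicle polysome, sorafenib light and vehicle light from left to right. Circles, squares and triangles are libraries 1, 2 and 3 and lines are means of 3. PSMD2 stands highest in the 3 sorafenib polysome libraries and PSMC2 is there above every vehicle library, whereas PSMB6, PSMA7 and PSMD8 are lower there than in the vehicle polysome libraries.

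The counts of the 14 20S genes divided by those of the 17 19S genes within a library need no scaling between libraries. This ratio was 1.51, 1.65 and 1.55 in the sorafenib polysome libraries, against 3.06, 3.44 and 3.16 in the vehicle polysome libraries. All sorafenib polysome values lay far below all vehicle polysome values. For light libraries it was 2.32, 1.81 and 2.42 in sorafenib libraries, against 2.44, 2.16 and 2.30 in vehicle libraries, and these overlapped. The 19S genes took 0.304% ± 0.012 of the counts in sorafenib polysome libraries, against 0.169% ± 0.015 in vehicle polysome libraries (SD, n = 3 each). The 20S genes took 0.478% ± 0.026 of the counts in sorafenib polysome libraries, against 0.544% ± 0.055 in vehicle polysome libraries. No test was made of these sums.

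**Figure D3:**
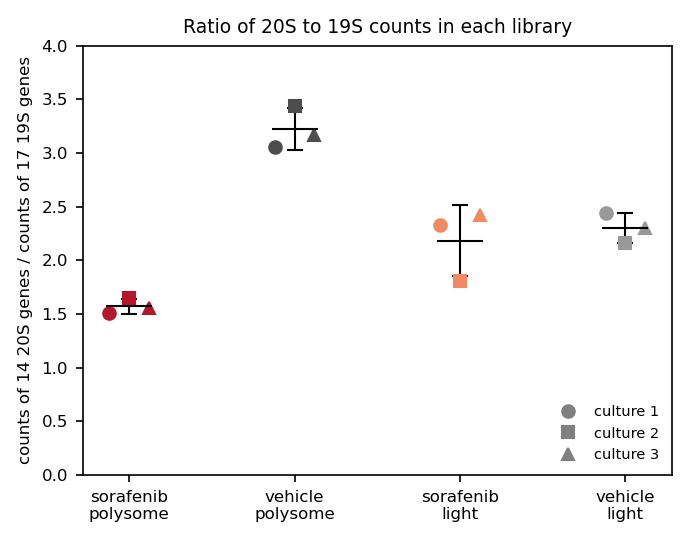
Ratio of the summed counts of 14 20S genes to those of 17 19S genes (vertical axis, from 0) in each library, by group. Symbols are libraries of cultures 1, 2 and 3 of that treatment (cultures are not paired between treatments), and the bars are the mean ± SD of 3. The sorafenib polysome libraries lie between 1.51 and 1.65 and the vehicle polysome libraries between 3.06 and 3.44, with both light groups between.

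In the light fraction, genes of both particles were higher after sorafenib. Of the 14 20S genes 6 rose and of the 17 19S genes 9 rose, and none of the 31 fell. Of all tested genes, 11.7% were higher and 17.7% lower in this comparison. The median log2 fold change was 0.58 for the 20S genes and 0.63 for the 19S genes, against -0.12 over all genes. The difference of these medians, 19S minus 20S, was 0.05 and ranged from -0.07 to 0.11 over the settings. With library totals only, all tested genes had a median of 0.31, and rises made up 73.5% of all calls, against 39.8% before; 11 20S genes and 14 19S genes were then higher. Without the filter on low counts, 3 20S and 2 19S genes were higher. The 20S genes took 0.350% ± 0.035 of the counts in sorafenib light libraries, against 0.169% ± 0.011 in vehicle light libraries. For the 19S genes the shares were 0.161% ± 0.010 in sorafenib light libraries, against 0.0738% ± 0.0083 in vehicle light libraries (SD, n = 3 each). These are shares of library totals, the scaling under which most calls were rises. Summed TMM-scaled levels differed less. For 20S genes they were 3913 ± 832 CPM in sorafenib light and 2572 ± 150 CPM in vehicle light libraries. For 19S genes they were 1781 ± 151 CPM in sorafenib light and 1120 ± 96 CPM in vehicle light libraries.

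The beta ring had 4 of its 7 genes higher in the light fraction, with a median of 0.97. PSMB3 had 579, 370.3 and 567 CPM in the sorafenib light libraries, against 151, 178 and 196 CPM in the vehicle light libraries. Even the lowest sorafenib library, library 2, stood well above every vehicle library. The log2 fold change was 1.54 ± 0.25 (edgeR adjusted p = 0.000244), the highest of the 31 in this fraction. PSMB6 had 224, 166 and 219.5 CPM in the sorafenib light libraries, against 76.7, 81.4 and 82.6 CPM in the vehicle light libraries. These groups lay far apart, with a log2 fold change of 1.35 ± 0.22 (edgeR adjusted p = 0.000246). The beta subunit genes PSMB1 (1.32 ± 0.24) and PSMB2 (0.97 ± 0.27) rose also.

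PSMB5 had 453, 318 and 491 CPM in the sorafenib light libraries, against 513, 449.8 and 352 CPM in the vehicle light libraries, and the groups overlapped (-0.05 ± 0.25, edgeR adjusted p = 0.894). PSMB7 had 186, 138 and 199.9 CPM in the sorafenib light libraries, against 132, 124 and 98.8 CPM in the vehicle light libraries. The sorafenib values lay above the vehicle values without passing the test (0.58 ± 0.23, edgeR adjusted p = 0.0684). In the alpha ring, PSMA7 (1.01 ± 0.27) and PSMA3 (0.85 ± 0.24) rose. PSMA7 had 526, 305 and 510.0 CPM in the sorafenib light libraries, against 175, 220.3 and 274 CPM in the vehicle light libraries, with the shallowest library again the lowest of the sorafenib values. Its edgeR adjusted p was 0.00959. PSMA6 had 227, 127 and 329.8 CPM in the sorafenib light libraries, against 162, 172 and 131 CPM in the vehicle light libraries. The groups overlapped (0.58 ± 0.29, edgeR adjusted p = 0.133), with library 2 below every vehicle library. For PSMA3, the antisense gene PSMA3-AS1 had counts of up to 22.8% of those of PSMA3 in a library.

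Of the lid genes, 6 of 8 rose in the light fraction (PSMD11, PSMD8, PSMD7, PSMD14, PSMD13 and PSMD3), with a median of 0.95 for the lid, whereas 2 of 6 ATPase genes (PSMC3 and PSMC4) and 1 of 3 non-ATPase base genes (PSMD1) did. PSMD11 had the largest rise of the lid, 1.38 ± 0.21 (edgeR adjusted p = 0.000142). PSMD8 had 113, 61.7 and 120.0 CPM in the sorafenib light libraries, against 53.3, 51.7 and 40.3 CPM in the vehicle light libraries. The shallowest sorafenib library was the closest to the vehicle range, and the log2 fold change was 1.06 ± 0.24 (edgeR adjusted p = 0.00284). PSMD14 had 74.0, 80.4 and 109 CPM in the sorafenib light libraries, against 36.3, 52.8 and 48.3 CPM in the vehicle light libraries. These groups did not overlap (0.96 ± 0.27, edgeR adjusted p = 0.0122). PSMD6 had 55.2, 33.7 and 62.8 CPM in the sorafenib light libraries, against 33.3, 42.4 and 33.0 CPM in the vehicle light libraries, and these overlapped (0.54 ± 0.26, edgeR adjusted p = 0.125).

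The lowest value in this fraction was that of the lid gene PSMD12, with 30.5, 16.8 and 33.9 CPM in the sorafenib light libraries, against 35.6, 40.3 and 29.7 CPM in the vehicle light libraries. The groups overlapped, and in sorafenib light library 2 the value rested on 9 counts (-0.28 ± 0.28, edgeR adjusted p = 0.469). PSMD2 had 42.3, 43.0 and 58.4 CPM in the sorafenib light libraries, against 36.9, 66.0 and 64.3 CPM in the vehicle light libraries, which overlapped (-0.19 ± 0.25, edgeR adjusted p = 0.604). PSMC2 had 73.4, 26.2 and 64.5 CPM in the sorafenib light libraries, against 33.3, 39.6 and 45.9 CPM in the vehicle light libraries. The shallow library 2, with 14 counts for this gene, lay below all vehicle libraries and the other two above them (0.55 ± 0.28, edgeR adjusted p = 0.149). PSMC5 had 77.5, 58.0 and 86.6 CPM in the sorafenib light libraries, against 73.2, 85.5 and 82.6 CPM in the vehicle light libraries, which overlapped (-0.09 ± 0.23, edgeR adjusted p = 0.806). PSMD4 had 274, 163 and 219 CPM in the sorafenib light libraries, against 127, 143 and 189 CPM in the vehicle light libraries. Here only sorafenib library 2 fell within the vehicle range (0.53 ± 0.26, edgeR adjusted p = 0.138).

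Leaving out sorafenib light library 2 alone raised the number of 20S genes called higher in the light fraction to 11, and of 19S genes to 13. Over all genes, 50.6% of 4700 calls were rises in that fit, against 39.8% of 4400 with all libraries. A fit without libraries 1 and 2 assumes that the remaining sorafenib light library varies like the other groups. Its medians were 0.92 for the 20S genes and 0.85 for the 19S genes, against -0.04 over all genes. The log2 fold changes in that fit were 1.84 for PSMB3, 1.59 for PSMB6, 1.45 for PSMD8, 1.39 for PSMD14, 1.34 for PSMA7 and 1.26 for PSMD11, all still called. PSMA2 (0.89), PSMA4 (0.90), PSMA6 (1.23), PSMB7 (0.90), PSMC2 (0.85) and PSMD6 (0.93) gained a call. In the same fit PSMD1 (adjusted p = 0.116) and PSMD13 (adjusted p = 0.0811) lost their calls. Calls near the threshold were also lost without 1 library: PSMA3 and PSMD3 without sorafenib light 1 (adjusted p = 0.0594 and 0.069), PSMD3 and PSMC4 without vehicle light 1 (0.072 and 0.0677), and PSMC4 and PSMD14 without sorafenib light 3 (0.116 and 0.0531). Those of PSMC4 without vehicle light 3 (0.0509) or sorafenib polysome 1 (0.0515) were at the threshold. Over both fractions, 5 genes, all of the 19S particle, rose in each (PSMC3, PSMC4, PSMD1, PSMD11 and PSMD14). A further 6 19S genes were called higher on polysomes without a call in the light fraction, and 4 20S and 3 19S genes were called higher in the light fraction without a call on polysomes. PSMA7, PSMB6 and PSMD8 were called higher in the light fraction and lower on polysomes.

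The interaction term tests the difference itself, the sorafenib effect on polysomes minus that in the light fraction. Of the 20S genes, 8 of 14 were lower and none higher by this term, with a median of -1.07. Of the 19S genes, 3 of 17 were higher and 2 lower, with a median of 0.26. Of all tested genes, 12.8% were higher and 10.7% lower, with a median of 0.02, and the 19S counts were near those shares. The share of rises among all calls of this term was 54.5%, and it was 64.6% with TMM within each fraction and 33.6% with library totals only. The difference of the medians, 19S minus 20S, was 1.33, and it ranged from 1.20 to 1.52 over the settings. The 20S median lay between -1.37 and -0.52, whereas the 19S median lay between -0.05, with library totals only, and 0.87, with no filter on low counts. Without the 2 shallow light libraries the medians were -0.94 and 0.36.

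PSMB6 had the lowest value of the term, -2.31 ± 0.30 (edgeR adjusted p = 6.75e-05): its level was lower after sorafenib in all 3 polysome libraries and higher in all 3 light libraries. PSMB3 (-1.92 ± 0.35), PSMA7 (-1.89 ± 0.38) and PSMB1 (-1.72 ± 0.34) followed, and PSMB2, PSMA3, PSMA2 and PSMA5 were between -1.25 and -0.98. The lid genes PSMD8 (-1.68 ± 0.33) and PSMD7 (-1.09 ± 0.31) were lower too. PSMD2 had the highest value, 1.69 ± 0.35 (edgeR adjusted p = 0.00183), followed by PSMD12 (1.25 ± 0.38) and PSMC2 (1.16 ± 0.39). PSMB6 and PSMD2 were called in each of the 22 alternative settings of this term, the other 11 genes were not. With any 1 library left out, PSMB3, PSMA7, PSMB1 and PSMD8 were still called, whereas PSMA2, PSMA3, PSMA5, PSMB2 and PSMD7 lost their calls without vehicle light 1, vehicle light 2 or sorafenib light 1 (adjusted p = 0.0575 to 0.134). Some of these were also lost without other libraries. PSMC2 and PSMD12 lost theirs without vehicle polysome 2 (0.0939 and 0.0589) or sorafenib polysome 3 (0.0949 and 0.0699), and PSMC2 also without vehicle polysome 1 or sorafenib polysome 1 (0.0573 and 0.0793). Without the 2 shallow light libraries, PSMC2 (adjusted p = 0.0514), PSMD12 (0.0747), PSMA5 (0.0554) and PSMB2 (0.0798) lost their calls. Leaving out 1 library reduced the 20S genes called lower to 4 for vehicle light 1, vehicle light 2 or sorafenib light 1. It reduced the 19S genes called higher to 1 for vehicle polysome 2 or sorafenib polysome 3. The 19S genes called lower went to 1 without sorafenib polysome 1 or without any 1 light library other than sorafenib light 2.

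**Figure D4:**
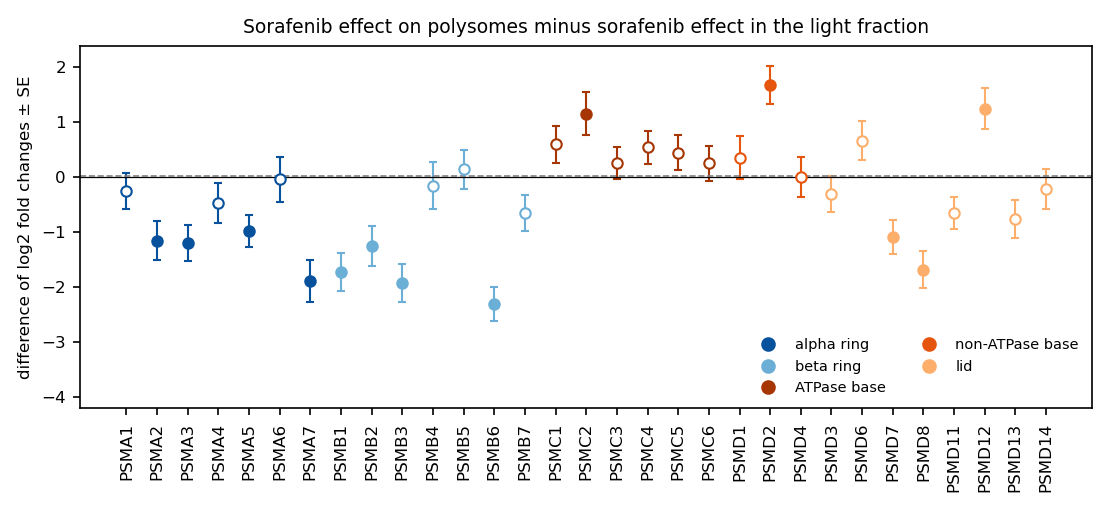
Sorafenib effect on polysomes minus sorafenib effect in the light fraction (vertical axis, difference of log2 fold changes with SE) for the 31 genes, coloured by subcomplex. Filled points passed an adjusted p under 0.05, and the dashed line is the median of all tested genes. The 8 filled 20S genes all lie below 0, and the 6 ATPase genes all lie above 0, 1 of them filled.

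The same 4 groups also give the spread of each mRNA over the gradient. In sorafenib cells, 20S mRNAs had a median polysome-over-light log2 fold change of -0.26, with none higher and 1 lower on polysomes, and 19S mRNAs had a median of 0.28, with 3 higher and 1 lower. Of all genes, 13.4% were higher and 12.4% lower on polysomes in sorafenib cells, with a median of -0.0037, so these counts were near the shares of all genes. In vehicle cells, 20S mRNAs had a median of 0.66, with 8 of 14 higher on polysomes and none lower, and 19S mRNAs had a median of 0.24, with 5 of 17 higher and 1 lower. Of all genes, 18.3% were higher and 17.8% lower in vehicle cells, with a median of -0.06. These medians moved with the settings. In sorafenib cells the 20S median lay between -0.40 and 0.53 and was above 0 under TMM within each fraction (0.53), library totals only (0.31) and no filter on low counts (0.38), and at 0.0021 without sorafenib light library 1, and the 19S median lay between 0.10 and 1.07. In vehicle cells the 20S median lay between 0.41 and 1.54, and the 19S median between -0.23, when every library was thinned to the lowest depth, and 1.13. The medians of all genes lay between -0.13 and 0.79 in sorafenib cells and between -0.11 and 0.82 in vehicle cells. Each treatment comparison and each fraction comparison above shares its libraries with the others, so these values are not independent of them.

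Taken culture by culture, the median polysome-minus-light difference of log2 CPM over the 20S genes was -0.57, 0.25 and -0.28 in sorafenib cultures 1, 2 and 3, against 0.58, 0.81 and 0.70 in vehicle cultures. All vehicle cultures were above all sorafenib cultures, and sorafenib culture 2, whose light library was the shallowest, was nearest to them. Over the 19S genes it was 0.15, 0.57 and 0.29 in sorafenib cultures, against 0.16, 0.11 and 0.35 in vehicle cultures, and these overlapped. No test was made of these medians.

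In vehicle cells, PSMA7 had the highest polysome-over-light value, 1.90 ± 0.28 (edgeR adjusted p = 3.61e-05), followed by PSMB6 (1.84 ± 0.22) and PSMB1 (1.71 ± 0.24). In sorafenib cells these genes were at 0.01 ± 0.27, -0.47 ± 0.21 and -0.02 ± 0.24, and none of them passed the test. PSMD2 had the highest value in sorafenib cells, 2.03 ± 0.26 (edgeR adjusted p = 3.1e-05), and 0.35 ± 0.24 in vehicle cells, where it did not pass. PSMD12 (0.80 ± 0.28) and PSMC5 (0.75 ± 0.23) were also higher on polysomes in sorafenib cells. Their calls were lost without sorafenib polysome library 3 (adjusted p = 0.158 and 0.0564), that of PSMC5 also without sorafenib polysome 2 (0.0747), that of PSMD12 also without sorafenib polysome 1 or light 1 (0.0843 and 0.0545), and both without the 2 shallow light libraries (0.209 and 0.141). PSMB3 was the lowest in sorafenib cells, -1.02 ± 0.24 (edgeR adjusted p = 0.00511), with a call lost without sorafenib light library 1 (-0.77, adjusted p = 0.0748), whereas in vehicle cells it was 0.90 ± 0.24. The lid gene PSMD8 was at -0.76 ± 0.24 in sorafenib cells.

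The ATPase gene PSMC4 had the lowest value in vehicle cells, -0.62 ± 0.21 (edgeR adjusted p = 0.0255), and was the only one of the 31 genes called lower on polysomes there. Its levels were 24.9, 27.1 and 29.2 CPM in vehicle polysome libraries, against 39.6, 44.4 and 40.9 CPM in vehicle light libraries, without overlap. The call was lost without any 1 vehicle library other than polysome 3 (adjusted p = 0.0542 to 0.116), and the value was above 0 with TMM within each fraction (0.019) or library totals only (0.26). With the culture as a block, 2 19S genes were lower there, PSMC4 and PSMC2 (-0.60, adjusted p = 0.0448). In sorafenib cells PSMC4 had 64.4, 50.8 and 68.4 CPM in polysome libraries, against 59.9, 54.2 and 75.4 CPM in light libraries, and these overlapped. With the culture as a block, PSMA5 (adjusted p = 0.0618) and PSMD11 (adjusted p = 0.0609) lost their calls in vehicle cells. Leaving out vehicle light library 1 left 5 20S and 3 19S genes higher there, and leaving out vehicle polysome library 3 also left 3 19S genes. PSMA2, PSMA5, PSMB3, PSMC4, PSMD3 and PSMD11 were the genes whose calls in vehicle cells were lost without vehicle light 1 (adjusted p = 0.0522 to 0.13). In sorafenib cells 2 20S genes were higher without sorafenib light library 3.

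**Figure D5:**
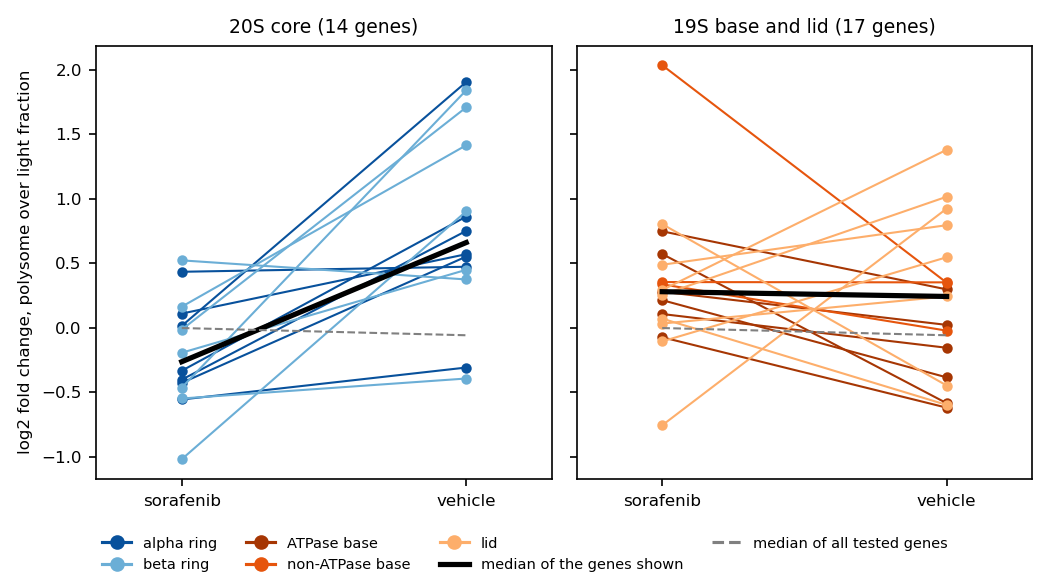
Log2 fold change of polysome over light fraction (vertical axis) in sorafenib cells (left end of each line) and vehicle cells (right end), 1 line per gene, with 14 20S genes in the left panel and 17 19S genes in the right. The thick black line joins the medians of the genes shown, -0.26 and 0.66 for 20S and 0.28 and 0.24 for 19S, and the dashed line joins the medians of all tested genes.

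Because NFE2L1 and related factors bind antioxidant response elements in proteasome gene promoters, the RefSeq windows of GRCh38.p14 from 250 bases before to 50 after each annotated start were searched on both strands. Windows were found for 26 of the 31 genes, and PSMA7, PSMB1, PSMB6, PSMB7 and PSMD4 had none in the table used. The element TGACNNNGC occurred in 7 of 26 genes (26.9%), against 16.1% of 27305 genes with a window. It was present for 2 of 10 20S genes and 5 of 16 19S genes. The shorter AP-1 core TGACTCA, which can overlap it, occurred in 2 of 26 (7.69%), against 6.05%, and the NF-Y box CCAAT in 15 of 26 (57.7%), against 39.7%. No test was made, and a match of letters is not a bound site. The matches before the start are shown on the strand of the gene with 12 bases on either side, with the motif in capitals. Where the match is on the opposite strand, the capitals show its reverse complement. Every match of the antioxidant response element or the AP-1 core that lay wholly before the start is shown, whatever the values of its gene.
PSMD2, AP-1 core, chr3:184300507-184300537, plus strand: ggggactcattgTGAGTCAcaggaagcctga
PSMC5, AP-1 core, chr17:63827674-63827704, plus strand: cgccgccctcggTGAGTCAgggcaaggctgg
PSMC5, antioxidant response element, chr17:63827652-63827684, plus strand: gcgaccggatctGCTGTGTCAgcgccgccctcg
PSMD12, antioxidant response element, chr17:67366722-67366754, minus strand: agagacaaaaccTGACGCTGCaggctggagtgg
PSMD3, antioxidant response element, chr17:39980758-39980790, plus strand: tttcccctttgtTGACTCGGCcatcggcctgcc
PSMB3, antioxidant response element, chr17:38752625-38752657, plus strand: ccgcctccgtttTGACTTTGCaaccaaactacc
PSMA4, antioxidant response element, chr15:78540648-78540680, plus strand: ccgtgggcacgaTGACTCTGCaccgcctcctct

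Of the genes with these matches, PSMD2 (AP-1 core) and PSMD12 (antioxidant response element) rose on polysomes, and PSMC5, PSMD3, PSMB3 and PSMA4 did not pass the test. Whether a match bears on the response of its gene was not tested. Matches in PSMC4 and PSMD1, both of which rose on polysomes, lay after the annotated start. A run of at least 5 pyrimidines that begins with C at the annotated start, as in mRNAs with terminal oligopyrimidine tracts, was searched for. It was present in 1 of 26 genes (3.85%), PSMB5 at one of its starts, against 5.14% of all genes. Runs that begin with T were not counted.

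The lists below are set beside all tested genes, of which 20.9% were higher and 28.8% lower on polysomes (median -0.26). In the light fraction 11.7% of all genes were higher and 17.7% lower (median -0.12). Values of these lists come from the fit on all 12 libraries alone. Of 7 regulators of proteasome genes, 3 were higher on polysomes after sorafenib, none lower, and 2 were higher and 1 lower in the light fraction. MAFF, a small MAF partner of NFE2-related factors, rose by 1.72 ± 0.26 on polysomes (edgeR adjusted p = 4.32e-05) and by 1.61 ± 0.31 in the light fraction (adjusted p = 0.000985). NFE2L1, the transcription factor that induces proteasome genes, rose by 0.97 ± 0.21 on polysomes (adjusted p = 0.000901), fell by 0.70 ± 0.24 in the light fraction (adjusted p = 0.0328), and had an interaction value of 1.67 ± 0.32. The list's median on polysomes was 0.82.

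Of 9 assembly chaperones, 2 were higher and 5 lower on polysomes, with a median of -0.67. Of all genes, 20.9% were higher and 28.8% lower there, with a median of -0.26. PSMG4 fell by 2.07 ± 0.25 (edgeR adjusted p = 4.51e-06) and PSMG3 by 1.38 ± 0.23 (adjusted p = 8.22e-05). Both help to build the alpha ring of the core. In the light fraction 1 of 9 was higher, near the 11.7% of all genes. This was PSMD9 (0.98 ± 0.25, adjusted p = 0.00636), a chaperone of the base. PAAF1, another base chaperone, was at -0.62 ± 0.25 there without passing (adjusted p = 0.0734), and rose on polysomes by 0.73 ± 0.22. Of the immunoproteasome and tissue-specific subunit genes, 3 of 5 were tested and all 3 were lower on polysomes, with a median of -1.01. The immunoproteasome catalytic subunit genes PSMB10 (-1.05 ± 0.24), PSMB9 (-1.01 ± 0.28) and PSMB8 (-0.62 ± 0.24) fell there. PSMB9 rose by 1.53 ± 0.34 in the light fraction (edgeR adjusted p = 0.00247), and PSMB8 was at 0.40 ± 0.26 without passing. The rise of PSMB9 rests on low levels, 12.8 ± 3.8 CPM in sorafenib light and 4.7 ± 1.1 CPM in vehicle light libraries (SD, n = 3 each). PSMA8 and PSMB11 did not pass the filter on low counts.

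Among 5 activators and inhibitors of the core, 1 was higher on polysomes, near the 20.9% of all genes. It was PSME4 (0.99 ± 0.19, edgeR adjusted p = 0.000409), a large single-chain activator. The 2 genes higher in the light fraction, PSME1 (1.14 ± 0.27) and PSME2 (0.98 ± 0.24), form the interferon-inducible activator ring. PSME1 was at 0.30 ± 0.26 on polysomes without passing. The list's medians were -0.03 on polysomes and 0.54 in the light fraction, against -0.26 and -0.12 over all genes. Among 7 other 19S-associated proteins, 2 were higher and 1 lower on polysomes, with a median of -0.15 against -0.26 over all genes. ECPAS, an adaptor and scaffold of the proteasome, rose by 1.34 ± 0.22 (adjusted p = 7.21e-05), and USP14, a deubiquitinase that binds the base, by 1.12 ± 0.22 (adjusted p = 0.000353). In the light fraction 1 was higher, TXNL1 (0.71 ± 0.26, adjusted p = 0.0452), a thioredoxin-like protein of the 19S particle, and the ubiquitin receptor gene ADRM1 was at -0.39 ± 0.29 without passing.

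Upstream of the proteasome, 3 of 6 ubiquitin and E1 genes were higher on polysomes and 3 lower, and none was called in the light fraction. The list's median on polysomes was 0.03. Of all genes, 20.9% were higher and 28.8% lower on polysomes, with a median of -0.26. The E1 enzyme genes UBA1 (2.15 ± 0.22, edgeR adjusted p = 9.56e-07) and UBA6 (1.14 ± 0.23) rose on polysomes. Of 7 genes of p97 and its cofactors, 3 were higher and 1 lower on polysomes, with a median of 0.56. VCP, the p97 segregase, rose by 2.05 ± 0.22 (adjusted p = 1.43e-06) and was at -0.14 ± 0.23 in the light fraction. Its cofactor gene UFD1 fell on polysomes by 0.84 ± 0.21. In the light fraction 2 cofactor genes were higher, FAF1 (1.16 ± 0.29) and UBXN1 (0.78 ± 0.25).

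Of 6 shuttle receptors, which carry ubiquitinated proteins to the proteasome, 3 were higher and 1 lower on polysomes, with a median of 0.70, and 2 were higher in the light fraction. UBQLN1 rose by 1.25 ± 0.20 on polysomes (edgeR adjusted p = 7.64e-05) and by 1.34 ± 0.21 in the light fraction (adjusted p = 0.000209). UBQLN2 rose by 1.52 ± 0.29 on polysomes, and RAD23B by 0.81 ± 0.26 in the light fraction. The COP9 signalosome, a complex whose subunits are paralogous to those of the lid, had 2 of 9 genes higher and 4 lower on polysomes. Its rises were near the share of all genes, 20.9%, and 28.8% of all genes were lower. Its median was 0.22, against -0.26 over all genes. In the light fraction 2 of its genes were higher, against 11.7% of all genes. COPS7B fell on polysomes by 1.11 ± 0.24 (adjusted p = 0.00107) and COPS5, the signalosome's deneddylase and the paralogue of PSMD14, by 1.06 ± 0.21 (adjusted p = 0.000433). COPS6 (1.20 ± 0.25) and GPS1 (0.92 ± 0.22) rose in the light fraction.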

How the data were processed

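RNA of light and polysome fractions from 12 libraries was analysed from whole-number counts per gene, not normalized, which the authors deposited. Per the submitters' processing notes, reads were placed on build GRCh38.p12. How they were aligned, annotated and counted, and whether by strand, is not stated in the labels, so genes with copies or antisense partners are uncertain. Libraries were grouped by treatment and fraction from the titles. The labels speak of triplicate experiments without saying more, so if the cultures were not separate the p-values reflect the spread of these libraries alone. Each culture's lysate normally came from a pair of dishes. In the labels, the S number in the name of sorafenib polysome library 3 is that of vehicle light library 1. The other S numbers follow their library's number. What the S number stands for, and whether this library was sequenced in a separate run, is not stated.

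Tests used edgeR 4.0.16 (R 4.3.3). After filterByExpr with the 4 groups, 14955 genes remained; the other 42398 rows took no more than 4.54% of any library. TMM factors were 0.637 to 1.41, and edgeR took sorafenib light library 2 as its reference. The quasi-likelihood fit used all 12 libraries without a block, 5 contrasts, and Benjamini-Hochberg adjustment over all genes. SE is the size of the log2 fold change divided by the root of its F statistic. The depth was 511065 to 13336689 counts. Within groups, libraries differed by more than counting noise (chi-square over its degrees of freedom 9.97 to 50.7), so the SEs hold the spread between libraries beside counting error, and no library was treated as deposited again under another name. This does not show that the cultures were separate. Fractions of 1 culture are paired by the labels. Their deviations from group means correlated at 0.05, 0.04 and 0.04 in sorafenib cultures and at 0.14, -0.07 and 0.33 in vehicle cultures.

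The genes and lists were chosen with earlier results of these data known, so they are described by counts and medians and not tested as sets. Values in every library are given for the gene with the highest and the lowest change on polysomes in each subcomplex, for the highest and lowest of all in each other comparison, and for PSMB5, PSMB6, PSMB7, PSMD4, PSMD14, PSMD2 and PSMC2. From the other lists, the 2 genes with the lowest p in each treatment comparison are named, except 1 gene that is not reported here, plus a few chosen after their values were seen (PSMC1, PSMC3, PSMC6, PSMD1, PSMD11, PSMB1, PSMB2, PSMA2, PSMA3, PSMB8 in some comparisons). Alternatives covered scaling, filter, DESeq2 1.42.0, blocks, depth, pseudogene rows and libraries left out. The fit was tested on simulated data with known changes. Promoters and gene names came from RefSeq tables. Protein lengths were not used here. Figures were drawn with matplotlib 3.10.9.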

Additional observations from a re-analysis of the deposited data

Results flagged for a closer look

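The genes below were picked out because the sorafenib effect differed between the polysome and the light fraction by the interaction term (log2 difference, edgeR adjusted p under 0.05, 12 libraries). No group is large enough for a check of single outlying samples. Among the 20S genes the values were -2.31 for PSMB6, -1.92 for PSMB3, -1.89 for PSMA7, -1.72 for PSMB1, -1.25 for PSMB2, -1.19 for PSMA3, -1.15 for PSMA2 and -0.98 for PSMA5. Among the 19S genes they were 1.69 for PSMD2, 1.25 for PSMD12 and 1.16 for PSMC2, and -1.68 for PSMD8 and -1.09 for PSMD7.

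Of the other named genes, 16 had such a difference. It was negative for the chaperone genes PSMD9 (-1.64), PSMG4 (-1.45) and PSMG3 (-0.92), the immunoproteasome genes PSMB9 (-2.54) and PSMB8 (-1.02), the activator gene PSME2 (-1.09), the p97 cofactor gene UFD1 (-1.10) and the signalosome genes COPS6 (-0.98) and COPS5 (-0.89). It was positive for VCP (2.19), NFE2L1 (1.67), UBA1 (1.61), ECPAS (1.46), PAAF1 (1.34), PSME4 (1.03) and USP14 (0.90). The sorafenib light libraries, of which 2 were shallow, enter every one of these values. For these 16 genes no value without the shallow libraries was taken, and PSMB9 had a low level (4.7 CPM in vehicle light libraries). When every library was thinned to the lowest depth, the median of this difference was -0.97 for the 20S genes and 0.34 for the 19S genes, against -1.07 and 0.26 without thinning. Thinning was a single random draw that left the shallowest library as it was, and 7689 genes were tested in it. It therefore cannot tell how much the shallow libraries weigh in these values.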

How the results depend on the processing

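Counts of genes called changed with the processing. The difference between the medians of the particles is nearly fixed under a change of scaling, so it is not set against these counts. Of the called genes, 9 of 15 on polysomes (PSMC1, PSMC2, PSMC3, PSMC4, PSMD1, PSMD2, PSMD6, PSMD11 and PSMD12), 4 of 15 in the light fraction (PSMB1, PSMB3, PSMB6 and PSMD11) and 2 of 13 by the interaction were called in every alternative run. So were PSMD2 of 5 genes for polysome over light in sorafenib cells, and 6 of 14 in vehicle cells (PSMA7, PSMB1, PSMB2, PSMB6, PSMD7 and PSMD13). Values called neither before nor under the alternative changed sign in 63 of 713 pairs of gene and setting on polysomes, 29 of 713 in the light fraction, 37 of 682 by the interaction, and 69 and 25 of 713 for polysome over light in sorafenib and vehicle cells. The cause of these changes was not tested.

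On polysomes, 1 20S gene was higher (0 before) under TMM within each fraction, library totals, no filter, thinning, both shallow libraries out, or only the 6 libraries of the comparison, in all of which no 19S gene was lower (1 before), as also with vehicle polysome library 1 as TMM reference. The 20S genes lower (3) were 1 under TMM within each fraction and 0 with no filter. Over all genes on polysomes, 55.5% of 7060 calls were rises under TMM within each fraction and 70.1% of 5567 with no filter. That was against 42.1% of 7436 before. In the light fraction, 20S genes higher (6) were 11 with totals, 3 with no filter and 10 with both shallow libraries out, and 19S genes higher (9) were 14 with totals and 2 with no filter. Over all genes in that fraction, 73.5% of 4966 calls were rises with totals and 37.5% of 3864 with no filter, against 39.8% of 4400 before. By the interaction, 20S genes lower (8) were 1 with no filter. Of the 3485 interaction calls over all genes with no filter, 81.0% were rises, against 54.5% of 3528 before. The 19S genes higher (3) were 1 with totals or both shallow libraries out, and those lower (2) were 4 with totals and 0 with no filter.

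For polysome over light in sorafenib cells, 20S genes higher (0) were 7 under TMM within each fraction, 4 with totals and 2 with no filter, and 19S genes higher (3) were 16, 13 and 10, and 1 with thinning or both shallow libraries out. The 20S genes lower (1) were 4 with DESeq2, 3 with thinning and, like 19S genes lower (1), 0 under TMM within each fraction, totals or no filter. In vehicle cells, 20S genes higher (8) were 13 with totals and 5 with thinning. The 19S genes higher (5) were 10 under TMM within each fraction, 12 with totals, 3 with no filter and 2 with thinning. The 19S genes lower (1) were 0 under those 3 settings and 2 with DESeq2, the replicate block, thinning or both shallow libraries out. Over all genes in sorafenib cells, 90.5% of 7781 calls were rises under TMM within each fraction, 85.9% of 6501 with totals and 65.5% of 7202 with no filter. That was against 51.9% of 3857 before. In vehicle cells, rises were 84.0% of 7061 calls under TMM within each fraction and 89.3% of 8190 with totals, against 50.8% of 5401 before. With thinning, rises were 40.4% of 1605 calls in sorafenib cells and 46.5% of 2227 in vehicle cells, among 7689 genes tested. With DESeq2 they were 45.3% of 4264 and 48.1% of 5504. In vehicle cells they were 53.7% of 4131 with no filter and 50.0% of 5705 with the replicate block. The member counts under these settings are to be read beside these shares. Counts with both shallow libraries out rest on 1 sorafenib light library, and no share is given for them. TMM within each fraction sets each fraction's own zero, so values across fractions change by its construction. Signs reversed under it for PSMB1 (0.77), PSMB7 (0.60), PSMC4 (0.72), PSMD8 (0.034) and PSMD11 (0.68) in sorafenib cells and PSMC4 (0.019) in vehicle cells, and with totals for PSMA1 (0.58), PSMC3 (0.72), PSMC4 (0.26) and PSMD1 (0.86) in vehicle cells.

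Leaving out 1 library gave 0 to 1 20S genes higher and 1 to 4 lower, and 9 to 14 19S genes higher and 0 to 1 lower, on polysomes. It gave 5 to 11 20S and 7 to 13 19S genes higher in the light fraction, and 4 to 8 20S genes lower, 1 to 4 19S genes higher and 1 to 3 lower by the interaction. In sorafenib cells it gave 0 to 2 20S genes higher and 0 to 1 lower, and 1 to 4 19S genes higher and 0 to 1 lower. In vehicle cells it gave 5 to 9 20S genes higher, and 3 to 5 19S genes higher and 0 to 3 lower. Over all genes in these fits, rises made up 41.4% to 56.9% of calls on polysomes and 38.8% to 50.6% in the light fraction. They made up 53.5% to 65.5% by the interaction, 51.8% to 63.8% in sorafenib cells and 49.7% to 52.0% in vehicle cells. The 1 20S gene higher on polysomes appeared without any 1 light library, the 20S genes lower fell to 1 without vehicle polysome library 3 or any light library but sorafenib light 2, and the 19S gene lower was lost without any library but vehicle polysome 1. In sorafenib cells the 20S gene lower was lost without sorafenib light 1 and the 19S gene lower without any 1 sorafenib library but light 2 or any 1 vehicle light library. In vehicle cells no 19S gene was lower without any 1 vehicle light library or vehicle polysome 2, and 3 were lower without sorafenib light 2.

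The replicate block (culture, or replicate number between treatments) also ended PSMC4 in the light fraction (0.60, adjusted p = 0.0514), made PSMC2 a call in sorafenib cells (0.67) and changed no other call than those given above. Same-numbered libraries of both treatments did not deviate together (r at most 0.02). Sorafenib light libraries 1 and 2 had the lowest total counts of all.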
